A study of Mus musculus with 12 samples.

Results

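The genes described here are 9 genes of the Nodal pathway, measured in mouse embryonic stem (ES) cells in which the histone demethylase gene *Kdm6a* was knocked down by RNA interference (RNAi). They are *Nodal*, *Lefty1*, *Lefty2*, *Tdgf1*, *Smad2*, *Smad3*, *Foxh1*, *Smad7* and *Skil*, found by gene symbol in the platform annotation among 19938 genes measured, and all 9 were among the 15309 genes tested. The set was chosen by measured values, since the PGK12.1 log2 changes of *Foxh1* and *Lefty2* were among the lowest of all genes. Values of the 9 genes in PGK12.1, and differences that contain them, are therefore given as a description without a test, while values in WD44 cells were tested.

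PGK12.1 is a female ES cell line from a 129 mother and a father of mixed 129 and PGK origin. WD44 is a male line from BL6 blastocysts, so sex and strain cannot be told apart between them. In each of 4 PGK12.1 and 2 WD44 experiments, cells that received a pool of siRNAs against *Kdm6a* (Kdm6a RNAi) were compared with cells that received siRNAs without a target (control RNAi), with 1 array each. PGK12.1 experiments 1 and 2 had double RNAi, with 100 pmol for 48 h followed by 400 pmol for 24 h and harvest at 72 h, whereas single RNAi was used in the other PGK12.1 experiments (3 and 4) and in WD44, with 100 pmol and harvest at 48 h. All cells were undifferentiated, kept in LIF and taken off their MEF feeders on gelatin before RNAi. Transient siRNA leaves part of the *Kdm6a* RNA in place, and the cells of a well were measured as a pool.

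Nodal is a secreted ligand of the TGF-β family that acts through activin receptors together with the co-receptor CRIPTO, the product of *Tdgf1*. The receptors phosphorylate SMAD2 and SMAD3, which enter the nucleus with SMAD4 and are brought to many of their targets by the forkhead factor FOXH1. LEFTY1 and LEFTY2 are secreted inhibitors of Nodal and are themselves products of Nodal target genes, and SMAD7 and SKIL (also called SnoN) restrain the signal inside the cell. The pathway is known for patterning the early embryo, including mesendoderm formation and left-right asymmetry, and is active in cultured ES cells.

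Array scale and cell markers bear on every value below. The median log2 value of an array lay between 6.15 and 6.21 in PGK12.1 experiments 1 and 2, was 6.48 after Kdm6a RNAi and 6.47 in the control of experiment 3 and 8.2 and 8.21 in the same order in experiment 4, and lay between 8.03 and 8.08 in WD44. Changes were therefore taken within an experiment, as log2 Kdm6a RNAi minus log2 control, and levels are given as the linear value divided by the mean of its array ("times the array mean"). All 8 ES cell markers were above the minimum level, and their summed level changed by -0.05 to 0.01 on the log2 scale in the PGK12.1 experiments and by -0.04 to -0.02 in the WD44 experiments. The 8 embryonic fibroblast (feeder) markers together reached 1.37 to 2.09 times the array mean after Kdm6a RNAi and 1.45 to 2.19 in controls in PGK12.1, and 2.20 to 2.27 after Kdm6a RNAi and 2.09 to 2.20 in controls in WD44, with *Postn* and *Lum* below the minimum level of 0.1. In bulk samples, fewer expressing cells and less RNA per cell cannot be told apart.

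*Kdm6a* itself was lower after Kdm6a RNAi in every experiment. In PGK12.1 its level fell by 59.0% ± 7.14 (SD, n = 4 experiments), or -1.29 on the log2 scale (limma standard error 0.077 and adjusted p = 0.000293), and in WD44 it was 47.5% ± 0.515 (SD, n = 2 experiments) lower. The WD44 change of -0.93 missed the threshold of an adjusted p under 0.05 (limma adjusted p = 0.13, between 0.00279 and 1.00 over the alternatives, and unadjusted p = 8.47e-06). Intervals and p-values in WD44 use a spread shared by the lines, to which PGK12.1 gives 3 of the 4 residual degrees of freedom. In the PGK12.1 experiments with single RNAi, *Kdm6a* changed by -1.42 and -0.96, against -0.94 and -0.92 in WD44. Differences between the lines given below were not adjusted for the size of the *Kdm6a* fall.

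*Foxh1*, the forkhead partner of the SMADs, had the third lowest mean change of the 15309 tested genes in PGK12.1. On arrays of Kdm6a RNAi cells *Foxh1* was at 0.275, 0.265, 0.355 and 0.752 times the array mean in PGK12.1 experiments 1 to 4, against 0.399, 0.473, 0.648 and 1.19 in their controls. Every Kdm6a RNAi array lay below its own control, although the groups overlap because the level of *Foxh1* differed between experiments more than within them. The log2 changes of -0.52, -0.85, -0.87 and -0.66 averaged -0.73 ± 0.166 (SD, n = 4 experiments), or 39.5% ± 7.10 below control. Of all tested genes, 0.0523%, or 8, were lower by at least 0.5 in all 4 PGK12.1 experiments, and *Foxh1* and *Lefty2* were 2 of these 8. Low PGK12.1 changes of these 2 genes were the reason for the choice, so nothing is read from this share. In WD44 *Foxh1* stood at 1.78 and 1.84 times the array mean after Kdm6a RNAi and at 1.85 and 2.01 in controls. Both WD44 changes were small and negative, -0.08 and -0.14, and averaged -0.11 (95% confidence interval -0.30 to 0.08), which missed the threshold (limma adjusted p = 0.561, between 0.421 and 1.00 over the alternatives). No PGK12.1 change of *Foxh1* overlapped the WD44 changes, and the mean was 0.62 log2 units lower in PGK12.1 than in WD44, or 0.66 lower when PGK12.1 was limited to single RNAi as in WD44.

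The starting level of *Foxh1* also differed between the lines. All 4 PGK12.1 controls lay below both WD44 controls, and PGK12.1 experiment 4, whose array median was nearest to that of WD44, had the PGK12.1 control closest to them. Line, experiment and array scale cannot be told apart in this comparison, which is a description. The share of all tested genes with controls separated by line was not counted. The percentile of *Foxh1* among the genes of its own array, which uses ranks only, was 51.5 to 68.6 after Kdm6a RNAi and 60.7 to 78.1 in controls in PGK12.1, and 85.5 and 86.3 after Kdm6a RNAi and 86.1 and 87.3 in controls in WD44. *Foxh1* overlaps *Kifc2*, a kinesin gene, in the RefSeq annotation. *Kifc2* had log2 changes of 0.11, -0.13, 0.27 and 0.09 in PGK12.1 and did not pass the test (mean 0.08, adjusted p = 0.462 from limma), and *Ppp1r16a*, the gene next to *Foxh1*, had a mean change of -0.08 (adjusted p = 0.29). Both genes were looked up after the values of *Foxh1* were known.

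**Figure D1:**
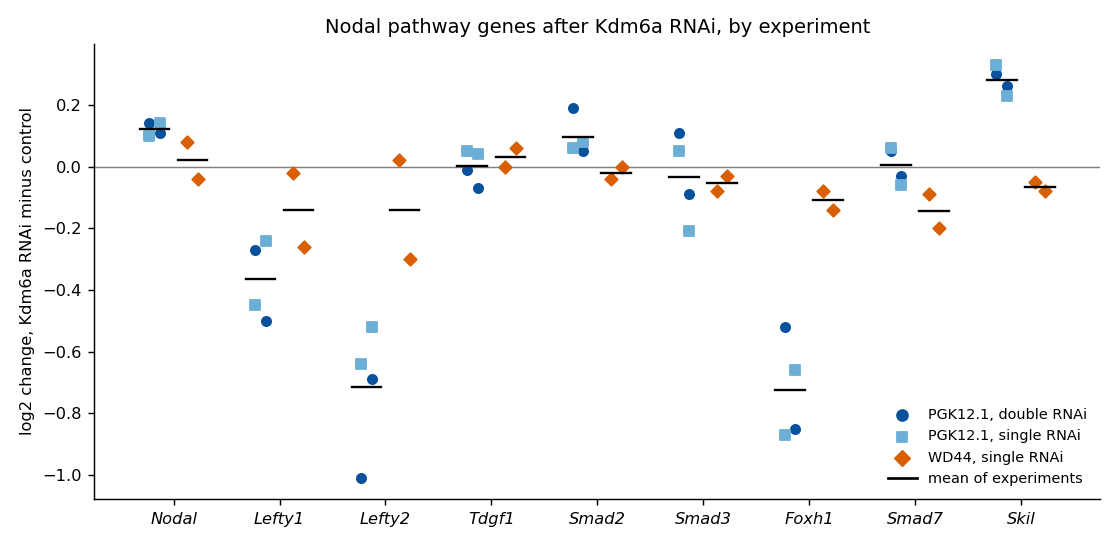
Log2 change within an experiment (y axis, Kdm6a RNAi minus its control) of the 9 genes (x axis), with circles and squares for double and single RNAi in PGK12.1, diamonds for WD44 and a black bar for the mean of each line. *Foxh1* and *Lefty2* lie at -0.52 or below in all 4 PGK12.1 experiments, *Skil* lies at 0.23 or above, and no WD44 value is below -0.30.

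*Lefty2* and *Lefty1*, which encode the secreted Nodal inhibitors, were both lower in all 4 PGK12.1 experiments. The level of *Lefty2* was 0.839, 0.890, 2.42 and 1.66 times the array mean after Kdm6a RNAi in PGK12.1 experiments 1 to 4, against 1.71, 1.42, 3.77 and 2.38 in controls. *Lefty2* was thus below its control each time, and was higher in the single RNAi experiments than in the double RNAi experiments in both Kdm6a RNAi and control cells. Its log2 changes were -1.01, -0.69, -0.64 and -0.52, with a mean of -0.72 ± 0.209 (SD, n = 4 experiments), or 39.1% ± 8.48 below control, the fourth lowest mean of the tested genes. The gene directly ahead of *Foxh1* in that order, after *Kdm6a*, was *Wfdc2* with -0.78, and the genes directly behind *Lefty2* were *Hspb8* with -0.67 and *Mpzl2* with -0.66. In WD44 *Lefty2* was at 0.784 and 0.681 times the array mean after Kdm6a RNAi and at 0.762 and 0.832 in controls. The WD44 experiments did not agree in direction, with changes of 0.02 and -0.30, and their average of -0.14 (95% confidence interval -0.39 to 0.11) did not pass (adjusted p = 0.568 from limma). All 4 PGK12.1 changes of *Lefty2* were below both WD44 changes, by 0.58 log2 units on average and by 0.44 when only single RNAi was taken in PGK12.1.

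*Lefty1* was closer to its control than *Lefty2* in each PGK12.1 experiment. It stood at 0.950, 0.769, 1.37 and 1.88 times the array mean after Kdm6a RNAi in PGK12.1 and at 1.16, 1.08, 1.87 and 2.22 in controls, with log2 changes of -0.27, -0.50, -0.45 and -0.24. The mean of -0.37 ± 0.129 (SD, n = 4 experiments), or 22.4% ± 6.95 below control, was reached or exceeded by 0.516% of tested genes on the low side. Unlike *Foxh1* and *Lefty2*, *Lefty1* overlapped between the lines. Its WD44 levels were 0.985 and 0.957 after Kdm6a RNAi and 0.985 and 1.14 in controls, and the second WD44 experiment (-0.26) lay within the PGK12.1 range whereas the first (-0.02) did not. The WD44 mean was -0.14 (95% confidence interval -0.33 to 0.05, adjusted p = 0.45 from limma). *Lefty1* and *Lefty2* are close paralogs that lie near each other on chromosome 1, each with 1 probe set here, and probes can pick up RNA of both, so their values may not be fully separate. The changes of *Lefty2* were lower than those of *Lefty1* in all 4 PGK12.1 experiments, and how far the probe sets share signal was not tested. In WD44 both genes were near 0 in the first experiment and lower in the second.

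Both Lefty genes had higher mean control levels in PGK12.1 than in WD44, the reverse of *Foxh1*. *Lefty2* control levels of 1.42 to 3.77 in PGK12.1 were all above the 0.762 and 0.832 of WD44, while *Lefty1* control levels of 1.08 to 2.22 in PGK12.1 overlapped the 0.985 and 1.14 of WD44. The same limits on comparing arrays of different scale apply as for *Foxh1*, and here too the share of all tested genes with separated controls was not counted.

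**Figure D2:**
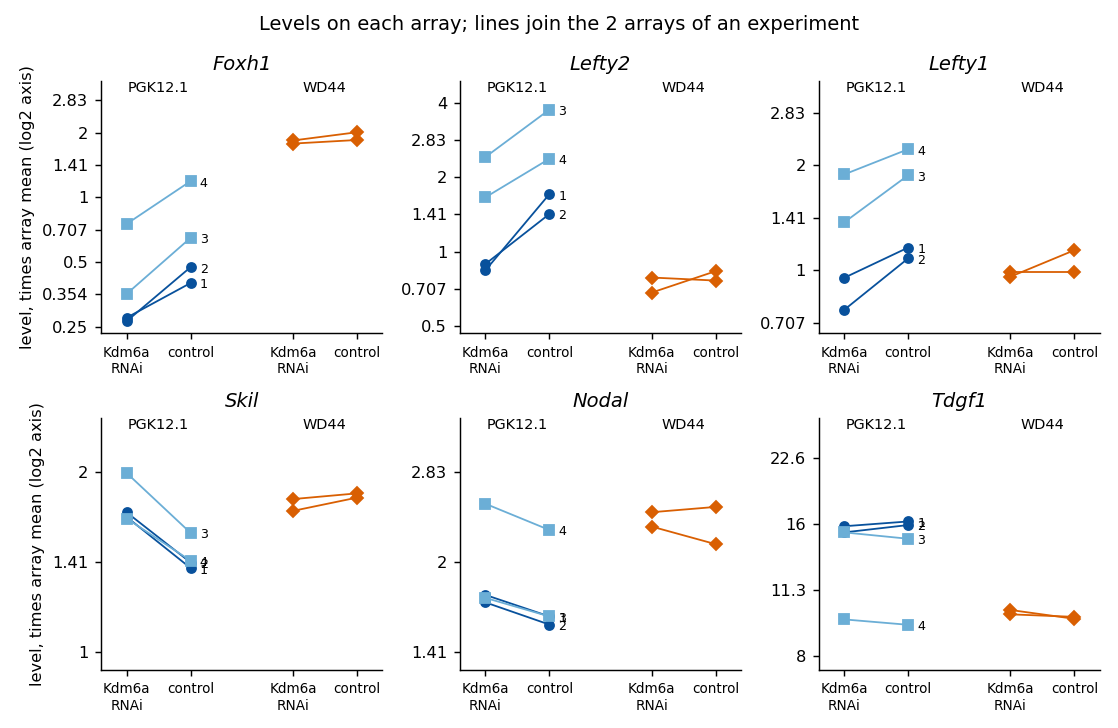
Level on each of the 12 arrays (times the array mean, log2 axis) for 6 of the genes, with Kdm6a RNAi left of control and PGK12.1 left of WD44, where a line joins the 2 arrays of an experiment, PGK12.1 controls carry their experiment number, dark circles are double RNAi, light squares single RNAi and diamonds WD44. *Foxh1*, *Lefty2* and *Lefty1* were lower after Kdm6a RNAi in every PGK12.1 experiment and *Skil* and *Nodal* higher, while *Tdgf1* differed by no more than 0.07 on the log2 scale.

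*Nodal*, the ligand, was slightly higher after Kdm6a RNAi in every PGK12.1 experiment. Its levels were 1.76, 1.71, 1.74 and 2.50 times the array mean after Kdm6a RNAi in PGK12.1 and 1.62, 1.57, 1.62 and 2.26 in controls. The log2 changes of 0.14, 0.11, 0.10 and 0.14 were close to each other (mean 0.12 ± 0.021, SD, n = 4 experiments), which is 8.86% ± 1.55 above control. A mean this high or higher was found for 12.7% of tested genes, so *Nodal* was even across experiments but not extreme among all genes. With quantile normalization of the 12 arrays the mean was 0.09. In WD44 *Nodal* was at 2.29 and 2.42 after Kdm6a RNAi and at 2.14 and 2.47 in controls, with changes of 0.08 and -0.04 in opposite directions (mean 0.02, 95% confidence interval -0.11 to 0.15, adjusted p = 0.907 from limma).

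*Tdgf1*, whose product CRIPTO lets Nodal bind its receptors, was the most highly ranked of the 9 genes on its arrays, at percentile 99.6 or above on each of the 12. Its level was 15.8, 15.3, 15.3 and 9.71 times the array mean after Kdm6a RNAi in PGK12.1, against 16.2, 15.9, 14.8 and 9.44 in controls. WD44 had 9.97 and 10.2 after Kdm6a RNAi and 9.84 and 9.74 in controls. Changes were -0.01, -0.07, 0.05 and 0.04 in PGK12.1 (mean 0.00 ± 0.055, SD, n = 4 experiments) and 0.00 and 0.06 in WD44 (mean 0.03, 95% confidence interval -0.11 to 0.17, adjusted p = 0.849 from limma). *Tdgf1* was thus the gene with the smallest mean change of the 9 in PGK12.1 together with *Smad7*.

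The promoter of *Tdgf1* is shown because it is the one window of the 3 searched that holds motif letters of the pathway's factors. Promoter sequences (250 bases before to 50 bases after the gene start, RefSeq, GRCm38.p6) were matched for 3 of the 9 genes, *Nodal*, *Tdgf1* and *Smad3*. They were searched on both strands for AATNNACA, a FOXH1-type motif, and for CAGAC, a SMAD-type motif, which do not overlap each other in the matches found. Of 32851 promoters of the same length, 12.2% hold the first motif and 49.6% the second. The *Tdgf1* window, chr9:110946109-110946408 on the minus strand, holds 2 matches to AATNNACA and 1 to CAGAC between them, printed in capitals:

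Tdgf1 promoter: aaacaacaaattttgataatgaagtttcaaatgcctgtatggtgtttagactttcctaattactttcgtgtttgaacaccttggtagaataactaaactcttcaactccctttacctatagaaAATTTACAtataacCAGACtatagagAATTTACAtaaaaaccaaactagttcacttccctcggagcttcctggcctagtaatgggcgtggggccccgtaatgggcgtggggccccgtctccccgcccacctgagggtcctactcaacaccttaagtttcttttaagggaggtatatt

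The matches to AATNNACA start 127 and 101 bases before the annotated gene start, and the CAGAC match starts 113 bases before it. The windows of *Nodal* and *Smad3* hold neither motif. A match is a run of letters and was not tested for binding.

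*Smad2* and *Smad3*, the receptor-activated SMADs, had changes no larger than 0.21 in size. *Smad2* was higher in all 4 PGK12.1 experiments, by 0.19, 0.05, 0.06 and 0.08 (mean 0.10 ± 0.065, SD, n = 4 experiments), and at -0.04 and 0.00 in WD44 (mean -0.02, 95% confidence interval -0.16 to 0.12, adjusted p = 0.91 from limma). The first double RNAi experiment had the highest of these values, and 18.4% of tested genes had a mean as high or higher. *Smad3* had no common direction in PGK12.1, with 0.11, -0.09, 0.05 and -0.21 (mean -0.04 ± 0.144, SD, n = 4 experiments). Its WD44 changes were -0.08 and -0.03 (mean -0.06, 95% confidence interval -0.23 to 0.12, adjusted p = 0.777 from limma).

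The levels of the pair differed in their evenness across arrays. *Smad2* stayed within 1.25 to 1.56 times the array mean after Kdm6a RNAi and 1.18 to 1.49 in controls in PGK12.1, and within 1.24 to 1.26 on all 4 WD44 arrays. *Smad3* was at 0.453 to 0.829 after Kdm6a RNAi and 0.436 to 0.958 in controls in PGK12.1, where experiment 4 had the highest value of both groups, and at 0.874 and 0.906 after Kdm6a RNAi and 0.886 and 0.945 in controls in WD44.

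*Skil*, which encodes a repressor of SMAD complexes, was the gene of the 9 that was highest above control in PGK12.1. It was at 1.68, 1.71, 1.99 and 1.67 times the array mean after Kdm6a RNAi and at 1.38, 1.41, 1.58 and 1.42 in controls. All 4 Kdm6a RNAi arrays of PGK12.1 lay above all 4 controls, a separation whose share among all tested genes was not counted. The changes of 0.30, 0.26, 0.33 and 0.23 averaged 0.28 ± 0.044 (SD, n = 4 experiments), or 21.4% ± 3.70 above control, and 1.76% of tested genes had a mean as high or higher. In WD44 *Skil* was at 1.80 and 1.72 after Kdm6a RNAi and at 1.84 and 1.81 in controls, changes of -0.05 and -0.08 that did not pass (mean -0.07, 95% confidence interval -0.20 to 0.07, adjusted p = 0.618 from limma). *Skil* was thus higher in 4 of 4 PGK12.1 experiments and lower in 2 of 2 WD44 experiments, a pattern held by 5.96% of tested genes. The mean was 0.35 log2 units higher in PGK12.1 than in WD44, also with single RNAi alone.

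*Smad7*, the inhibitory SMAD, had no common direction in PGK12.1 (0.05, -0.03, 0.06 and -0.06, mean 0.01 ± 0.059, SD, n = 4 experiments). In WD44 it was lower in both experiments (-0.09 and -0.20), the lowest mean of the 9 genes there (-0.15, 95% confidence interval -0.286 to -0.004). *Smad7* was at 1.45 and 1.33 times the array mean after Kdm6a RNAi and at 1.52 and 1.51 in controls in WD44. *Smad7* was the only member of the set with an unadjusted p under 0.05 in WD44, which 16.1% of all tested genes had, and it missed the threshold after adjustment (limma adjusted p = 0.299).

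Counted together, 3 of the 9 genes (*Foxh1*, *Lefty2* and *Lefty1*) were lower in all 4 PGK12.1 experiments, as were 10.6% of all tested genes, and 3 (*Nodal*, *Smad2* and *Skil*) were higher in all 4, as were 16.3%. The contrast that chose the genes is the one counted here, and nothing is read from these shares. Values lower by at least 0.2 in all 4 experiments were found for the same 3 genes and 0.699% of tested genes, and higher by at least 0.2 for 1 of the 9, *Skil*, and 1.01% of tested genes. The median change of the 9 genes in PGK12.1 was 0.00, against 0.01 over all tested genes.

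In WD44, which the choice of genes did not use, 0 of the 9 genes passed the test, also under every alternative run. Limma called 0 of 15309 genes there at an adjusted p under 0.05 (0.0%), against 2461 at an unadjusted p under 0.05. A total of 5 of the 9 genes (*Lefty1*, *Foxh1*, *Smad3*, *Smad7* and *Skil*) were lower in both WD44 experiments and 0 were higher in both, where 33.1% of all tested genes were lower in both and 31.3% higher in both. The median change of the 9 genes in WD44 was -0.07, against -0.01 over all tested genes. All 4 PGK12.1 changes lay below both WD44 changes for *Foxh1* and *Lefty2*, as for 13.6% of tested genes, and above both for *Nodal*, *Smad2*, *Smad7* and *Skil*, as for 17.9%. Limma called 0 of all tested genes for the difference between the lines (0.0%), with 21.0% at an unadjusted p under 0.05.

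**Figure D3:**
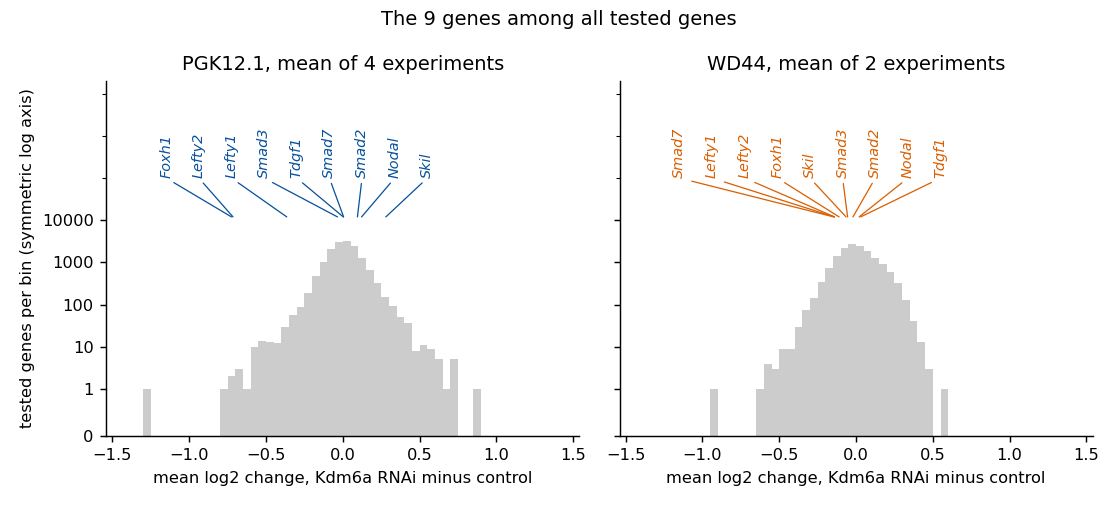
Number of tested genes (y axis, symmetric log axis) by mean log2 change, Kdm6a RNAi minus control (x axis), in PGK12.1 (left) and WD44 (right), with lines from the names of the 9 genes to their means. In PGK12.1 *Foxh1* (-0.73) and *Lefty2* (-0.72) stand in the lower tail, and in WD44 all 9 genes lie between -0.15 and 0.03.

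Double RNAi was compared with single RNAi in PGK12.1, as 2 experiments against 2, for the size of the changes. The treatments differ in dose, time and array scale, which cannot be told apart. Limma called 0 of 15309 genes for the difference (0.0%, with 8.88% at an unadjusted p under 0.05). For the 9 genes the difference is made of the PGK12.1 values that chose them and is given as a description. *Lefty2* averaged -0.85 after double RNAi and -0.58 after single RNAi, a difference of -0.27, which was -0.11 without experiment 1 and -0.43 without experiment 2. *Foxh1* averaged -0.69 after double RNAi and -0.77 after single RNAi, a difference of 0.08 that turned to -0.085 without experiment 1, and *Skil* averaged 0.28 after both. *Kdm6a* changed by -1.39 after double RNAi and -1.19 after single RNAi, a difference of -0.20 that did not pass (adjusted p = 0.751 from limma).

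The genes around the 9 in the pathway were described from lists by role. Of 51 other genes of the Nodal, activin and TGF-β pathway, 48 were measured and 46 tested, and 0 rose and 0 fell in PGK12.1, where limma called 3.71% of all tested genes as higher and 2.1% as lower (5.81% in either direction). At an unadjusted p under 0.05 there were 10 of the 46, beside 22.6% of all tested genes. The other ligands and their convertases (10 tested) ranged from -0.14 for *Pcsk6*, a convertase, to 0.30 for *Inhba*, the activin A subunit gene (adjusted p = 0.068 from limma). *Inhbb*, which encodes the other activin subunit, had 0.17 (adjusted p = 0.0883). The median of these ligand and convertase genes was -0.02.

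Receptors and inhibitors outside the cell also stayed below the threshold. *Tgfbr1*, a type I TGF-β receptor gene, had the lowest adjusted p of the 46 genes, 0.0602 (limma), with log2 changes of 0.36, 0.33, -0.02 and 0.26. It passed when experiment 3, the only one where it was not higher, was left out (mean 0.32, adjusted p = 0.0146 from limma). With any other PGK12.1 or WD44 experiment left out, 0 of the 46 genes passed. *Acvr1b*, the type I receptor used by Nodal and activin, had 0.04 (adjusted p = 0.715). Among 6 extracellular inhibitors tested, *Dand5*, a Nodal antagonist of the Cerberus family, had 0.15 (adjusted p = 0.0952) and *Ltbp1*, a latent TGF-β binding protein gene, 0.13 (adjusted p = 0.201).

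Inside the cell, the shared SMAD gene *Smad4* had 0.09 (adjusted p = 0.245 from limma) and the coactivator gene *Crebbp* 0.10 (adjusted p = 0.206). *Ski*, the closest relative of *Skil*, had -0.14 in PGK12.1 (adjusted p = 0.11), opposite in sign to *Skil*, and *Nedd4l*, a ubiquitin ligase gene, had -0.14 (adjusted p = 0.16). Target genes of the pathway in epiblast and mesendoderm (8 tested) lay between -0.10 for *Fgf8* (adjusted p = 0.376) and 0.07 for *Hhex* (adjusted p = 0.423), and 0 of the 8 had an unadjusted p under 0.05. None of these other targets had a mean change as low as *Lefty1* or *Lefty2*. The low value of *Lefty2* was itself used to choose the set. Apart from *Otx2* (1.74 times the array mean), the tested targets had low mean levels, from 0.138 (*Lhx1*) to 0.459 (*Fgf8*). *Lefty1* and *Lefty2* had mean levels of 1.28 and 1.51. In WD44, 0 of the 46 genes passed and 11 had an unadjusted p under 0.05, beside 0.0% and 16.1% of all tested genes, with medians between -0.07 for the receptors and 0.19 for the extracellular inhibitors.

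The BMP branch, which uses the related SMAD1, SMAD5 and SMAD9, had 2 called genes among 17 tested in PGK12.1, both higher, where 3.71% of all tested genes were called as higher and 2.1% as lower. At an unadjusted p under 0.05 (limma) there were 10 of the 17, in both directions, beside 22.6% of all tested genes. *Id2*, an inhibitor of bHLH factors and a known BMP target, rose by 0.36 on the log2 scale (limma standard error 0.074 and adjusted p = 0.0242, between 0.00312 and 1.00 over the alternatives), with 0.36, 0.37, 0.07 and 0.62 in experiments 1 to 4. *Smad5* rose by 0.21 (limma standard error 0.051 and adjusted p = 0.0394, between 0.0101 and 1.00), with 0.37, 0.21, 0.15 and 0.12. Both calls were lost with some libraries left out. *Id2* did not pass without PGK12.1 experiment 1, 2 or 4 (adjusted p = 0.0678, 0.0887 and 0.0711) or without either WD44 experiment (adjusted p = 0.0533), though it passed without PGK12.1 experiment 3 (adjusted p = 0.00802), and *Smad5* did not pass with any 1 of the 6 experiments left out (adjusted p between 0.0568 and 0.125). *Id1* and *Id3*, also BMP targets, had 0.10 and 0.11 and did not pass (adjusted p = 0.216 and 0.333), and *Bmp4*, a ligand gene, had -0.24 (adjusted p = 0.093). In WD44, *Id2* (-0.13) and *Smad5* (-0.11) were on the other side of 0 and did not pass (adjusted p = 0.588 and 0.48).

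**Figure D4:**
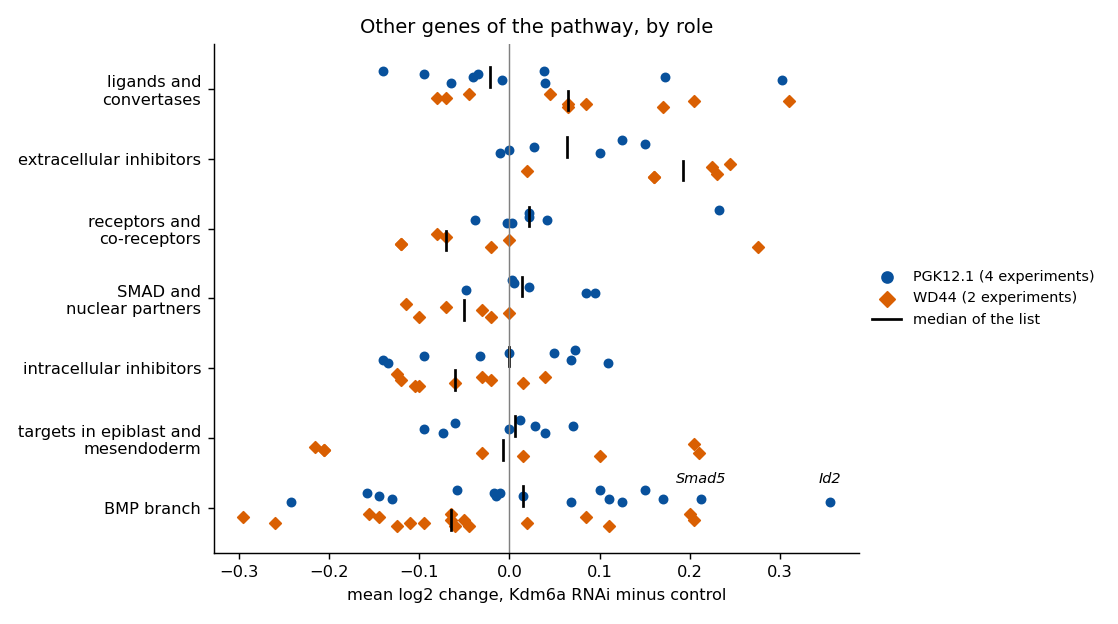
Mean log2 change, Kdm6a RNAi minus control (x axis), of the other tested genes of the pathway by role (rows), with circles for PGK12.1 above diamonds for WD44 and a black bar for the median of each list. *Id2* (0.36) and *Smad5* (0.21) are named because they passed the test in PGK12.1, and no other gene shown did.

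Of 30 genes tested on the marker lists, 1 was called in PGK12.1 (5.81% of all tested genes were called, and 2.1% as lower), the ES cell coactivator gene *Utf1* (-0.22, adjusted p = 0.0248 from limma). *Pou5f1*, *Nanog* and *Sox2* had -0.01, -0.02 and 0.08 and did not pass (adjusted p = 0.891, 0.797 and 0.327). The summed primed epiblast markers (5 genes) changed by -0.26 to 0.13 on the log2 scale in PGK12.1 and by -0.06 to 0.15 in WD44, the primitive endoderm markers (7 genes) by -0.04 to 0.12 and -0.01 to 0.02, and the trophoblast markers (6 genes) by -0.17 to -0.03 and 0.12 to 0.15. The summed feeder markers changed by -0.19 to -0.05 in PGK12.1 and by 0.05 to 0.08 in WD44. The trophoblast and feeder sums were thus lower in all 4 PGK12.1 experiments, as *Foxh1*, *Lefty1* and *Lefty2* were, and higher in both WD44 experiments. Not every gene followed its sum. Of the trophoblast genes, only *Tfap2c* was lower in all 4 PGK12.1 experiments. Of the feeder genes, *Col1a1*, *Col1a2*, *Thy1* and *Lum* were lower in all 4, whereas *Col3a1*, *Postn*, *Dcn* and *Fbln2* were not. The feeder genes *Thy1* (-0.22 and -0.16) and *Fbln2* (-0.12 and -0.28) were lower in both WD44 experiments. *Krt8*, the trophoblast marker with the highest mean level (3.09 times the array mean), was higher in PGK12.1 experiment 1 (0.16). The part of either sum in the changes of *Foxh1*, *Lefty1* and *Lefty2* was not tested.

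Finally, the tested genes whose 6 changes were most like those of *Foxh1* and of *Lefty2* were found by the root mean square difference over the 6 experiments. Nearest to *Foxh1* were *Slc51a* (difference 0.153 log2 units), *Capg* (0.167), *Cd24a* (0.177), *Plet1* (0.180) and *Cldn6* (0.181). For *Lefty2* they were *Mpzl2* (0.188), *Hip1* (0.201), *Aqp3* (0.211), *Plet1* (0.229) and *Dgka* (0.233). Most of the 6 experiments are in PGK12.1, where low changes of *Foxh1* and *Lefty2* led to their choice. The search therefore favours other genes with large falls in PGK12.1, and nothing is read from the order or the positions in it. *Slc51a* encodes a subunit of an organic solute transporter, *Cldn6* a tight junction claudin and *Aqp3* a water and glycerol channel. None of the nearest genes named is on the lists of pathway genes. Those lists hold only 63 of the 15309 tested genes, so nothing is read from this either. *Plet1*, a cell surface protein gene, was near both, with -0.66, -0.58, -0.64 and -0.75 in PGK12.1 and -0.28 and -0.11 in WD44. *Lefty2* and *Foxh1* differed from each other by 0.25, which placed *Lefty2* at position 26 in the order of genes most like *Foxh1*, and *Foxh1* at position 12 in that of *Lefty2*. The 2 genes crossed by experiment, with *Lefty2* lowest in experiment 1 (-1.01), where *Foxh1* was nearest to its control (-0.52).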

How the data were processed

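RNA of 12 samples was measured on 12 Mouse Gene 1.0 ST arrays (Affymetrix). Deposited values are log2, per the labels from RMA in Expression Console (background correction, alignment of array distributions, summary over probes). Software versions and the set of arrays normalized jointly: not given in the sources used here. The study calls the array experiments independent, without saying whether each used a separate culture, so part of the spread behind the p-values may be technical.

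Of 35556 probe sets, 21789 carried 1 gene symbol, 1621 several (not used) and 12146 none listed. Probe sets of a gene were averaged (19938 genes, each of the 9 with 1 probe set), and genes with a mean of at least 0.1 of the array mean over all probe sets were tested (15309, with 4629 below). Of the listed genes, 3 were not analysed here. Limma 3.58.1 in R 4.3.3 was fitted across all genes and 12 arrays with the experiment as a block, since the labels number the 2 arrays of an experiment alike and the methods name paired tests. The spread was shared by the lines (4 residual and 5.664 prior degrees of freedom), with Benjamini-Hochberg adjustment at 0.05. Deviations within an experiment correlated at 0.828 to 0.972 in PGK12.1, where array scale adds to them, and 0.265 in WD44. Double minus single RNAi had a fit of its own. The fit of the 2 lines was tested on simulated data. Figures used matplotlib 3.10.9.

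The 9 genes and all lists were chosen with earlier results of these data known. Other genes named were, per pathway list, those called, or else the 2 with the smallest unadjusted p in PGK12.1, and the 5 genes most like *Foxh1* and *Lefty2*. *Kifc2*, *Ppp1r16a*, *Wfdc2*, *Hspb8*, *Pcsk6*, *Id1*, *Id3*, *Bmp4*, *Utf1*, *Pou5f1*, *Nanog*, *Sox2*, *Otx2*, *Lhx1*, *Thy1*, *Fbln2*, *Krt8* and the list genes with opposite directions in the lines were named after their values were seen. *Tfap2c*, *Lum*, *Postn*, *Col3a1* and *Dcn* were also named after their values were seen. The small number of arrays limits precision.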

Additional observations from a re-analysis of the deposited data

Results flagged for a closer look

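Within the 4 PGK12.1 arrays of a treatment, 6 levels stood far from the other 3 arrays of their group (a gap wide enough to arise by chance in about 1 in 20 groups). Of these, 5 came from experiment 4, whose arrays have another scale. After Kdm6a RNAi, *Nodal* was highest there at 2.50 times the array mean, *Kdm6a* highest at 1.57 and *Tdgf1* lowest at 9.71, and in controls *Nodal* was highest at 2.26 and *Tdgf1* lowest at 9.44. The sixth was *Skil* after Kdm6a RNAi in experiment 3, at 1.99. No log2 change of the 9 genes within experiments stood apart in this way.

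Opposite directions in the lines were found for *Skil* of the 9 genes, higher after Kdm6a RNAi in all 4 PGK12.1 experiments and lower in both WD44 experiments, a pattern of 5.96% of all tested genes. Its change was 0.345 higher in PGK12.1 than in WD44, a difference that was not tested because the genes were chosen on PGK12.1 values. The same pattern was found for 7 of 63 tested genes of the pathway lists and 2 of 30 of the marker lists, with differences, PGK12.1 minus WD44, of 0.48 for *Id2*, 0.322 for *Smad5*, 0.255 for *Id1*, 0.209 for *Smurf2*, 0.198 for *Smurf1*, 0.195 for *Crebbp*, 0.192 for *Lama1*, 0.115 for *Sox2* and 0.105 for *Smad4*. The reverse, lower in PGK12.1 and higher in WD44 (3.36% of all tested genes), was found for *Msx1* (-0.35), *Fgf8* (-0.305), *Col1a2* (-0.238), *Col1a1* (-0.232) and *Gdf3* (-0.13). None of these differences on the lists passed the test (limma, lowest adjusted p = 0.0952 for *Msx1*).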

How the results depend on the processing

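Changes of the 9 genes in PGK12.1 kept their value within 1 SD of the experiments under each alternative, except *Nodal* (0.086 with quantile normalization), and 0 of the 9 passed in WD44 under any. In PGK12.1 only quantile normalization and median centring could have moved a mean by more than 1 SD. The other alternatives leave the paired mean as it was or average fewer of the same experiments, which cannot move it that far. Nothing is read from their outcome. In WD44 the sign turned for *Smad2* with quantile normalization (0.021), for *Nodal* (-0.04 to 0.08) and for *Lefty2* (-0.30 to 0.02) when 1 experiment was left out. For double minus single RNAi it turned with quantile normalization for *Nodal* (-0.035), *Smad2* (-0.001) and *Smad7* (-0.034), and with 1 experiment left out for *Foxh1* (-0.085 to 0.245), *Lefty1* (-0.155 to 0.075), *Nodal* (-0.015 to 0.025), *Smad2* (-0.02 to 0.12), *Smad3* (-0.04 to 0.22) and *Smad7* (-0.05 to 0.07).

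Counts of called genes moved more. In PGK12.1, 890 genes were called, against 0 with no replicate block, 452 with no minimum level, 1365 with a minimum of 0.25, 1647 with trend and robust moderation, 182 with double RNAi only, 101 with single RNAi only and 350 to 607 with 1 experiment left out. The methods' paired t-test gave 2444 at an unadjusted p under 0.05 and 0 after Benjamini-Hochberg. In WD44 1 gene was called with a minimum of 0.25 or quantile normalization, 12 with trend and robust moderation and 0 to 1 with 1 experiment left out. The difference of the lines had 267 with a minimum of 0.25, 2 with quantile normalization, 3 with median centring and 554 with trend and robust moderation, and double minus single RNAi had 1 with trend and robust moderation. *Kdm6a* in PGK12.1 (-1.29) did not pass with no replicate block. In WD44 it passed with a minimum of 0.25 or trend and robust moderation (-0.93), with quantile normalization (-0.94) and without PGK12.1 experiment 4 (-0.94 to -0.92 over experiments left out).

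Of the other Nodal, activin and TGF-β genes, 2 were called in PGK12.1 with a minimum of 0.25, 1 with quantile normalization or median centring, 4 with trend and robust moderation and 0 to 1 with 1 experiment left out. The count of BMP branch calls, 2, was 0 with no replicate block, no minimum level or single RNAi only, 4 with a minimum of 0.25, 1 with quantile normalization, and 0 to 1 with 1 experiment left out (0 without PGK12.1 experiment 2 or either WD44 experiment). The 1 BMP branch gene called without PGK12.1 experiment 1 or without experiment 4 was neither *Id2* nor *Smad5*. The cause of these changes in count was not tested. The number of arrays limits what can be called, above all in WD44.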
